A study of Mus musculus with 6 samples.

Results

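Among the mature miRNA names in the read tables, 5 belong to small RNAs that were registered as miRNAs in miRBase release 16, match tRNA or rRNA and were later withdrawn from the miRNA catalogue. They are miR-1937a, miR-1937b, miR-1937c, miR-720 and miR-2145. They were chosen by number, as every entry named miR-1937, miR-720 or miR-2145 with any letter or arm, with earlier results of these libraries known. They make up 5 of the 1055 entries counted. Of the 5, 4 had reads, and these 4 had at least 10 reads in every library, as did 608 of all 1055 entries. A minimum of 100 reads in every library was met by 2 of them, miR-1937a and miR-2145, and by 399 entries overall.

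The libraries hold small RNAs of 19 to 25 nucleotides from whole brains of female mice of the 129SV background, aged 5.5 months. Brains of 3 wild-type and 3 Adar2-/- mice were sequenced, 1 library per brain. Adar2, also called Adarb1, encodes an enzyme that deaminates adenosine to inosine in double-stranded RNA. The comparison asked how loss of this enzyme alters the amount of each mature miRNA. The Adar2-/- mice carry a constitutive knockout and die young unless the AMPA receptor gene Gria2 is pre-edited in the genome. Both genotypes were therefore homozygous for Gria2 R/R, so wild-type refers to Adar2 alone, and both came from crosses of Adar2+/- parents. The Adar2 transcript was not measured in these small RNA libraries, so the genotype labels were not checked against it. The libraries held 12449633 to 23935544 reads mapped to miRNAs. Levels are given as reads per 1000000 mapped miRNA reads (RPM), with the standard deviation (SD) over 3 brains. In whole brain, fewer cells of a type and less RNA per cell cannot be told apart.

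A typical miRNA is cut from a hairpin transcript by Drosha in the nucleus and by Dicer in the cytoplasm, and one strand is loaded into an Argonaute protein. Fragments of tRNA can arise differently, by cleavage of the mature tRNA or of its precursor by nucleases such as angiogenin. Fragments of rRNA come from ribosomes and from their turnover. Both kinds can have the length of a miRNA, enter the same gel slice and be counted with miRNAs. RNA polymerase III transcribes tRNA genes from a promoter inside the gene, whose downstream element is the B box, and mature tRNAs end in CCA, which vertebrate tRNA genes do not encode.

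The gene of miR-720 was the 1 of the 5 that could be matched by name to a reference. The annotated Mir720 hairpin (ENSMUSG00000076048.1) lies at chr3:88920531-88920594 of NCBIM37 on the minus strand, is 64 bases long, is annotated as a miRNA gene and overlaps no other gene. The nearest gene, Fdps, is 14650 bp away. The hairpin is shown beside 3 further places in the same genome that carry its 3′ stretch, because these are the places where the match to a tRNA gene can be read. Capitals mark the shared 15 bases, which are positions 46 to 60 of the hairpin.
Mir720 hairpin: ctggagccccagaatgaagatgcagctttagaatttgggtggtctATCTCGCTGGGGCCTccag
chr11:48667121-48667193, plus strand: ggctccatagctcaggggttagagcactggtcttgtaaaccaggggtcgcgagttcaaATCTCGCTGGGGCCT
chr14:51684843-51684915, minus strand: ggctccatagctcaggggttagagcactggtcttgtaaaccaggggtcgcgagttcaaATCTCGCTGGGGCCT
chr14:51708325-51708397, plus strand: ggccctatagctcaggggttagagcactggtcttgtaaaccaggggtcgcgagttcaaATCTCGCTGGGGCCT

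The 3 genomic stretches of 73 bases have features of a tRNA gene. In each, the first 7 bases can pair with the 7 bases before the last one, with G to T pairs allowed, as in the acceptor stem of a tRNA. The B box letters GTTCNANNC run into the capitals and end 3 bases after their start. The 3 stretches were picked from the copies by these letters at this place, so that all 3 have them is no result. None of the 3 overlaps a gene of the GENCODE vM1 annotation, and none is followed by CCA. Whether that annotation includes tRNA genes was not checked. The shared 15 bases occurred 50 times in the genome on both strands together, the hairpin included. Of the 47 copies without the B box letters at that place, 0 had 7 stem pairs, and 44 were followed by CCA, as the hairpin is. Searched on both strands, GTTCNANNC was present in 2.44% of the first 73 bases of 32851 RefSeq promoters and in 4 of the 50 copies. Along the hairpin, each stretch of 15 bases had 1 to 67 copies, with a median of 12, and 8 stretches had a single copy. The 4 stretches that start at positions 46 to 49 had 49 to 67 copies. Positions 46 to 60 were chosen after the copies of all stretches were seen. The letters just before the capitals differ between the hairpin and the 3 stretches. The deposited counts give only a total per entry. They therefore do not separate reads of a tRNA fragment with these letters from reads of the hairpin's 3′ stretch.

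**Figure D1:**
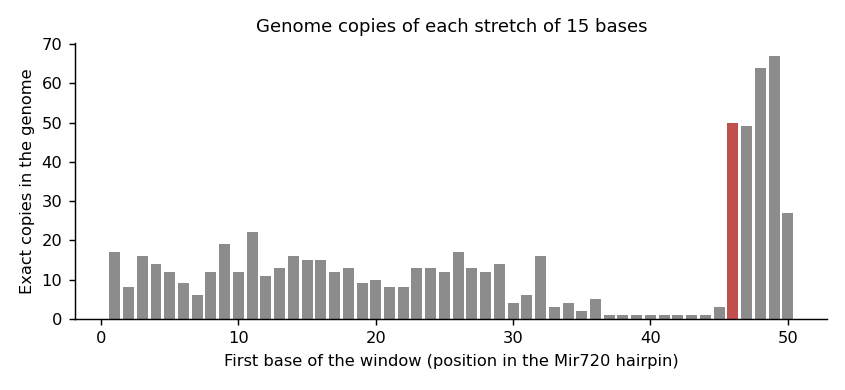
Number of exact copies in the NCBIM37 mouse genome, both strands, of each stretch of 15 bases of the Mir720 hairpin (vertical axis), against the first position of the stretch (horizontal axis). The stretches that start at positions 46 to 49 have 49 to 67 copies, above the median of 12, and the red bar is the stretch printed in capitals.

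The 4 entries with reads were rare in all 6 brains. Together they took 441, 697 and 949 reads in wild-type replicates 1, 2 and 3, and 641, 609 and 537 reads in Adar2-/- replicates 1, 2 and 3. As a share of mapped miRNA reads this was 35.4, 30.6 and 40.4 RPM in the wild-type and 34.4, 25.8 and 22.4 RPM in the Adar2-/- brains, so the ranges of the genotypes overlap. The means were 35.5 ± 4.92 and 27.5 ± 6.15 RPM (SD, n = 3), a ratio of 0.776. The lowest share was 0.00224% of the library, with a 95% Wilson interval of 0.00206% to 0.00244%. The highest share was 0.00404%, with an interval of 0.00379% to 0.00431%, and these intervals cover counting error only. miR-378, the most read entry, had 4473 to 8281 times as many reads as the 4 entries together. miR-2145 supplied 39.3% to 60.4% of the reads of the group, miR-1937a 21.2% to 33.6%, miR-720 7.26% to 17.7% and miR-1937b 7.03% to 11.7%. Ordered by mean RPM over all entries, miR-2145 held place 349, miR-1937a 401, miR-720 496 and miR-1937b 505. The order of miR-2145 above miR-1937a and of miR-1937a above both miR-720 and miR-1937b held in each of the 6 libraries, whereas miR-720 and miR-1937b changed places between libraries.

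**Figure D2:**
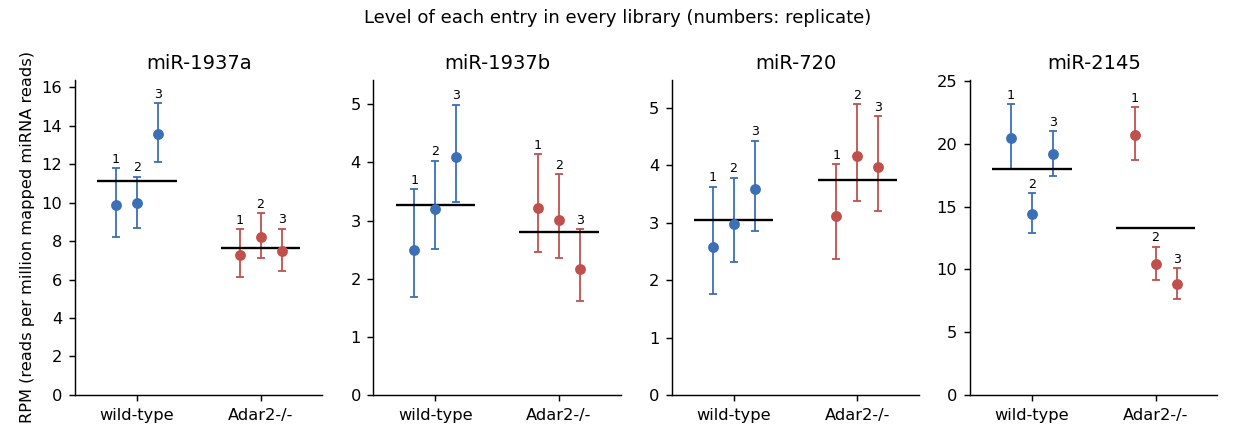
RPM of each entry with reads (vertical axes from 0) in every library of wild-type (blue) and Adar2-/- (red) brains, numbered by replicate. Error bars are exact 95% Poisson intervals of the read count and black lines are group means. For miR-1937a all 3 Adar2-/- libraries lie below the 3 wild-type ones, and for the other 3 entries the genotypes overlap.

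miR-1937a, the better read of the miR-1937 entries, had 123, 227 and 319 reads in the wild-type libraries 1 to 3 and 136, 194 and 179 reads in the Adar2-/- libraries 1 to 3. These are 9.88, 9.97 and 13.6 RPM in the wild-type and 7.29, 8.23 and 7.48 RPM in the Adar2-/- brains. All 3 Adar2-/- values lay below all 3 wild-type values, and wild-type replicate 3 stood above the other wild-type brains. The means were 11.1 ± 2.12 and 7.67 ± 0.493 RPM (SD, n = 3), a ratio of 0.688 for Adar2-/- over wild-type. A two-sided exact permutation test gave p = 0.1, which is the smallest value that 3 against 3 brains allow. In edgeR's quasi-likelihood test over 399 entries the log2 fold change was −0.54 with a standard error of 0.30 and an adjusted p of 0.988, so the difference did not pass. The 17 alternative settings gave log2 fold changes of −0.67 to −0.35 with adjusted p-values of 0.315 to 0.998. Without wild-type replicate 3 the ratio was 0.773. The study had picked this entry as lowered on these same libraries, so its direction here is not independent evidence.

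Absence of overlap of this kind was seen for 12 of the 399 entries in the lower direction (3.01%), and for 23 entries in either direction (5.76%). By a rule modelled on that of the study, without the p-value limit of its lists, Adar2-/- over wild-type had to lie on the same side of 1 in all 3 replicate numbers, with a ratio of means of at least 1.3-fold. By this rule miR-1937a counted as lower, with ratios of 0.738, 0.825 and 0.550. The same rule took 17 of the 399 entries as lower (4.26%) and 22 as higher (5.51%). The rule is a description and no test. miR-1937a, 1 of the 2 entries of the group at this minimum, is read against those percentages.

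miR-1937b, which shares its number with miR-1937a, had 31, 73 and 96 reads in the wild-type and 60, 71 and 52 reads in the Adar2-/- brains. The levels were 2.49, 3.20 and 4.09 RPM in the wild-type libraries 1 to 3 and 3.22, 3.01 and 2.17 RPM in the Adar2-/- libraries 1 to 3. The genotypes overlap, with the highest value in wild-type replicate 3 and the lowest in Adar2-/- replicate 3. The means were 3.26 ± 0.802 and 2.80 ± 0.553 RPM (SD, n = 3; two-sided exact permutation p = 0.5). Replicate by replicate the ratios were 1.29, 0.939 and 0.531, on both sides of 1. With a minimum of 10 reads, edgeR over 608 entries gave a log2 fold change of −0.23 with a standard error of 0.36 (adjusted p = 0.982). Its direction turned to 0.12 when both libraries numbered 3 were left out (adjusted p = 0.997), and over 16 alternatives the adjusted p was 0.532 to 0.999.

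miR-1937c had 0 reads in all 6 libraries. By a one-sided 95% limit, a count of 0 allows up to 3 reads, which is 0.125 to 0.241 RPM per library. No fold is given for it, since both genotypes are under this limit. Besides miR-1937c, 12 entries had 0 reads everywhere. No other entry shared its 6 counts with miR-1937a, miR-1937b, miR-720 or miR-2145. Reads that fit several entries equally well were weighted during mapping, and how the weights became whole counts is not given in the sources used here. Whether reads were split among the miR-1937 entries was not tested.

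The hairpin of miR-720 holds the capital letters shared with the tRNA-like stretches printed above. miR-720 had 32, 68 and 84 reads in the wild-type and 58, 98 and 95 reads in the Adar2-/- brains. This gave 2.57, 2.99 and 3.58 RPM in the wild-type libraries 1 to 3 and 3.11, 4.16 and 3.97 RPM in the Adar2-/- libraries 1 to 3. The 2 highest values were Adar2-/- replicates 2 and 3, and Adar2-/- replicate 1 lay inside the wild-type range. The means were 3.04 ± 0.507 and 3.74 ± 0.557 RPM (SD, n = 3), a ratio of 1.23, with a two-sided exact permutation p of 0.2. Within replicate numbers the ratios were 1.21, 1.39 and 1.11, all above 1, while the ratio of the means was under 1.3. In edgeR over 608 entries the log2 fold change was 0.29 with a standard error of 0.34 (adjusted p = 0.982, and 0.716 to 0.999 over 16 alternatives). The overlap and the direction in replicate 3 depended on the scaling. With TMM factors, which scale libraries by the bulk of entries, the 3 Adar2-/- values lay above all wild-type values. The share of all entries without overlap was not computed with TMM factors, so this cannot be set against it. With totals that leave out the 5 most read entries the ratio of the libraries numbered 3 was 0.963.

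miR-2145, the most read entry of the group, had 255, 329 and 450 reads in the wild-type and 387, 246 and 211 reads in the Adar2-/- brains. Levels were 20.5, 14.4 and 19.2 RPM in the wild-type libraries 1 to 3 and 20.8, 10.4 and 8.82 RPM in the Adar2-/- libraries 1 to 3. Adar2-/- replicate 1 had the highest value of the 6, whereas Adar2-/- replicates 2 and 3 had the lowest values, so the genotypes overlap. The means were 18.0 ± 3.18 and 13.3 ± 6.48 RPM (SD, n = 3), a ratio of 0.739 with a two-sided exact permutation p of 0.4. In edgeR over 399 entries the log2 fold change was −0.44 with a standard error of 0.39 (adjusted p = 0.988). Without Adar2-/- replicate 1 the ratio was 0.534 and the log2 fold change −0.90 (edgeR adjusted p = 0.355). Its 17 alternatives gave log2 fold changes of −0.90 to −0.16 with adjusted p-values of 0.170 to 0.998.

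None of the 4 tested entries passed an adjusted p of 0.05 in edgeR. Over all entries edgeR called 0 of 399 (0.0%) at 100 reads and 0 of 608 (0.0%) at 10 reads. At an unadjusted p under 0.05, edgeR on all 6 libraries without further scaling gave 13 of 399 (3.26%) and 20 of 608 (3.29%), none of them among the 4 entries. DESeq2 gave miR-1937a an unadjusted p of 0.035, beside 41 of 399 entries under 0.05 there. Without Adar2-/- replicate 1, edgeR gave miR-2145 an unadjusted p of 0.025, beside 45 of 399. Without replicate 1 of both genotypes its edgeR unadjusted p was 0.029, beside 87 of 399. DESeq2 called 1 of 399 (0.251%) and 1 of 608 (0.164%). The sign of the difference agreed in all 3 replicate numbers for 2 of the 4 entries, beside 112 of 608 entries (18.4%). They were miR-1937a, lower as were 50 of the 608 (8.22%), and miR-720, higher as were 62 (10.2%). At 10 reads, 1 of the 4 did not overlap between genotypes, beside 34 of 608 (5.59%). The median log2 fold change of the 4 entries was −0.33, beside 0.02 over the 608 entries, and 3 of the 4 lay below 0 and 1 above. In the plot of fold change by level the 4 entries lie within the range of entries read as rarely as they are.

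**Figure D3:**
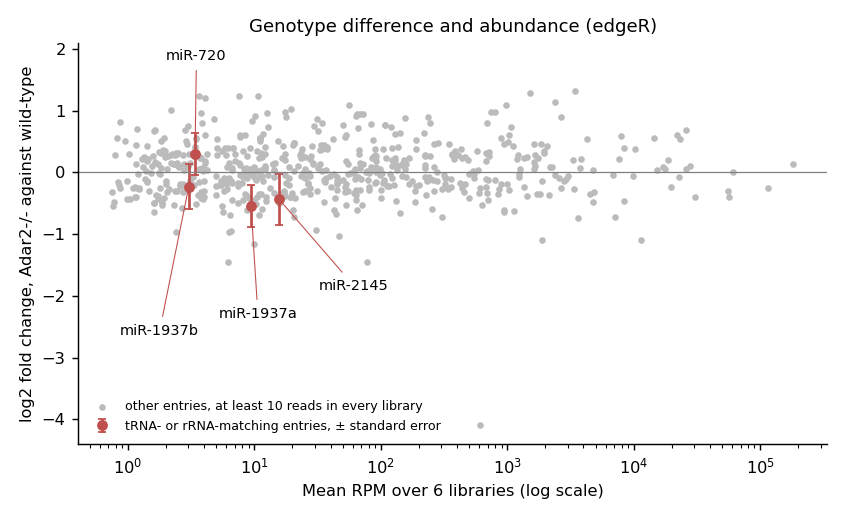
Log2 fold change of Adar2-/- against wild-type from edgeR (vertical axis) against mean RPM over the 6 libraries (horizontal axis, log scale) for the 608 entries with at least 10 reads in every library. Red points with bars of 1 standard error are miR-1937a (−0.54), miR-2145 (−0.44), miR-1937b (−0.23) and miR-720 (0.29), and grey points are the other entries.

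Ratios between entries of the same library do not depend on the library total. The reads of miR-720 over those of miR-1937a were 0.260, 0.300 and 0.263 in the wild-type libraries 1 to 3 and 0.426, 0.505 and 0.531 in the Adar2-/- libraries 1 to 3. Every Adar2-/- ratio lay above every wild-type ratio. On the log2 scale the means were −1.87 ± 0.11 and −1.04 ± 0.17 (SD, n = 3), a difference of 0.83. This was 1 of the 6 pairs among the 4 entries, and of all 184528 pairs of entries with at least 10 reads, 15910 (8.62%) did not overlap. No test was made of it, since the group had been put together with earlier results of these libraries known.

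The remaining 5 pairs overlapped between genotypes. miR-1937a over miR-1937b was 3.97, 3.11 and 3.32 in the wild-type and 2.27, 2.73 and 3.44 in the Adar2-/- brains, with log2 means of 1.79 ± 0.18 and 1.47 ± 0.30. miR-1937a over miR-2145 had nearly the same log2 mean in both genotypes, −0.69 ± 0.31 and −0.70 ± 0.71, with more spread among the Adar2-/- brains. The log2 ratio of miR-720 over miR-2145 averaged −2.56 ± 0.38 in the wild-type and −1.74 ± 0.87 in the Adar2-/- brains, a difference of 0.82 within the spread of the latter. miR-1937b over miR-2145 averaged −2.48 ± 0.49 and −2.17 ± 0.47, and miR-720 over miR-1937b averaged −0.08 ± 0.12 and 0.43 ± 0.46.

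**Figure D4:**
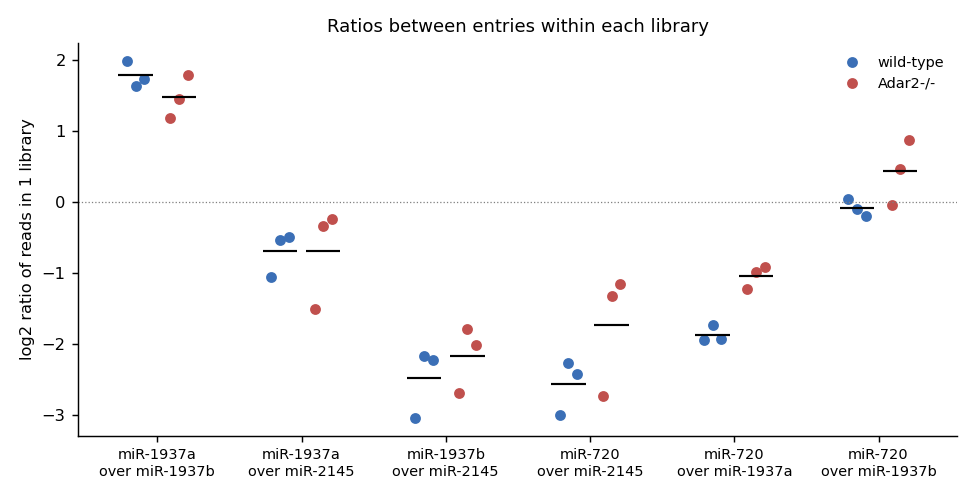
Log2 ratio of the reads of 2 entries in the same library (vertical axis) for the 6 pairs of entries with reads, in wild-type (blue) and Adar2-/- (red) brains, with group means as black lines. Only for miR-720 over miR-1937a do the genotypes not overlap, with means of −1.87 in wild-type and −1.04 in Adar2-/- brains.

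Over the 6 libraries, which share their totals as a scale, the Pearson correlation of log2 RPM was 0.63 between miR-1937a and miR-1937b, 0.44 between miR-1937a and miR-2145 and 0.51 between miR-1937b and miR-2145. miR-720 did not follow them, with −0.21 to miR-1937a, 0.01 to miR-1937b and −0.75 to miR-2145. These values describe 6 libraries of 2 genotypes and carry no test. Among the 399 entries, those most alike to miR-1937a in this measure were miR-99b* (0.91), miR-151-3p (0.90) and miR-181a-1* (0.90). Those most alike to miR-2145 were miR-125b-1-3p (0.96), miR-466i-5p (0.91) and miR-3066 (0.90). The edgeR log2 fold changes of these 6 entries ran from −0.60 for miR-181a-1* to −0.29 for miR-125b-1-3p. They were picked as the highest correlations among the 399 entries over the same 6 libraries, genotype difference included. Their high correlations and their direction follow in part from that choice and are no separate result.

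The spread between brains changed when single libraries were left out. Leaving out the most distant of 3 values lowers the spread in itself, so these values only describe the libraries. The coefficient of variation of miR-2145 was 17.6% in the wild-type and 48.6% in the Adar2-/- brains, where counting alone would give 5.63% and 6.01%. Without Adar2-/- replicate 1 the Adar2-/- value was 11.9%, below that of the wild-type, and without wild-type replicate 2 the wild-type value was 4.67%. miR-1937a had 19.0% and 6.43%, with 6.97% and 7.73% from counting, so its Adar2-/- libraries differed by no more than counting error. miR-720 had 16.6% and 14.9%, close to the 13.3% and 11.0% from counting, and miR-1937b had 24.6% and 19.8% against 12.7% and 12.9%. The value in the Adar2-/- brains was 3.24% for miR-720 without replicate 1 and 4.71% for miR-1937b without replicate 3. In the wild-type brains no single library carried the spread of these entries. With 1 wild-type library left out it was 17.2% to 34.4% for miR-1937b and 10.6% to 23.2% for miR-720. Over all 6 libraries the coefficient of variation was 25.0% for miR-1937a, place 133 from the lowest of 399, and 33.4% for miR-2145, place 234. The median over the 399 entries was 30.4%, and that of entries within 2-fold of their abundance was 31.0% over 63 entries for miR-1937a and 31.5% over 102 entries for miR-2145. Over the 6 libraries, any genotype difference included, miR-1937a thus lay below and miR-2145 slightly above the median of entries of like abundance. The spread within a genotype was not set beside that of other entries. Without wild-type replicate 3 the value of miR-1937a was 15.0% over 5 libraries, and 0.608% over the other wild-type libraries.

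Entries of like origin or number were set beside these. miR-1983 is a small RNA made from a tRNA gene for isoleucine that stays in the catalogue, and miR-2137 carries a number close to that of miR-2145. Their mature sequences from RefSeq on GRCm38.p6 are shown because they are the nearest comparisons to the entries above, with the seed, bases 2 to 8, in capitals.
miR-1983, chr13:21896930-21896950, minus strand: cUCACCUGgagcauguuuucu
miR-2137, chrX:72992113-72992133, plus strand: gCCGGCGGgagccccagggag

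The miR-1983 letters run from position 100 to 120 of an annotated hairpin of 132 bases, in which the B box letters GTTCNANNC lie at positions 92 to 100, so both share 1 base. miR-1983 was read at 108, 70.5 and 112 RPM in the wild-type libraries 1 to 3 and at 67.7, 100.5 and 91.5 RPM in the Adar2-/- libraries 1 to 3, above each of the 4 entries in every library. The genotypes overlap, with means of 96.8 ± 22.8 and 86.6 ± 16.95 RPM (SD, n = 3) and an edgeR log2 fold change of −0.16 with a standard error of 0.33 (adjusted p = 0.989). Its ratios by replicate number, 0.627, 1.43 and 0.818, lay on both sides of 1. miR-2137 was read at 41.8, 16.3 and 13.5 RPM in the wild-type and 29.3, 13.8 and 10.3 RPM in the Adar2-/- brains. The genotypes overlap, although the ratios by replicate number, 0.701, 0.849 and 0.761, were all below 1. The ratio of its means was 0.746, so miR-2137 is among the 17 entries that the rule above took as lower. The libraries numbered 1 had the highest value of either genotype, as they did for miR-2145, and the edgeR log2 fold change was −0.42 with a standard error of 0.53 (adjusted p = 0.988). Of the entries miR-2132 to miR-2146 other than miR-2145, 3 were present, miR-2139 had 0 reads in all 6 libraries and miR-2136 had 31 reads in total.

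A list of small RNAs known to be made without the usual Drosha step was described in the same way. It holds the entries of miR-320, miR-484, miR-702, miR-877, miR-1224, miR-1839, miR-1981, miR-1982, miR-1983 and miR-664, among them mirtrons, which are spliced introns, capped hairpins and fragments of snoRNA and tRNA. Of its 18 entries, 9 had at least 100 reads in every library. In edgeR 0 of the 9 passed the adjusted p, 0 had an unadjusted p under 0.05, beside 3.26% of the 399 entries, and 0 did not overlap between genotypes, beside 5.76%. The log2 fold change was below 0 for 6 and above 0 for 3, beside 198 below and 201 above among the 399 entries. Its median was −0.16, beside 0.00 over the 399 entries. It was lowest for miR-1981* at −0.59, from 13.8 ± 3.01 to 9.15 ± 1.63 RPM, and highest for miR-320 at 0.53, from 71.3 ± 15.2 to 103 ± 51.5 RPM. The mirtron miR-1224 had −0.37, miR-664 and miR-664*, cut from a snoRNA, had 0.00 and −0.45, and the capped miR-484 had −0.13.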

How the data were processed

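The authors prepared small RNA of 19 to 25 nucleotides from whole brains, sequenced reads of 36 bases, removed adaptors with Cutadapt and aligned them by NextGenMap against mature sequences from miRBase release 16. Hits needed 90% identity, hits to the reverse strand were discarded, and reads with several equally good hits were weighted. The submitters' processing notes name mm9, which is the NCBIM37 assembly. The deposited values are raw read counts per miRNA, 1055 entries in each of 3 tables, each with 1 wild-type and 1 Adar2-/- library. The 12 blank lines in the tables were dropped. All replicates are separate brains.

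From the counts, RPM was computed as reads over all miRNA reads of the library. At 1 read, RPM is 0.0418 to 0.0803, and the low counts limit the precision of miR-720 and miR-1937b. Adar2-/- was compared with wild-type by edgeR's quasi-likelihood test (edgeR 4.0.16, R 4.3.3) on the counts of entries with at least 100 reads in every library, without further scaling, adjusted by Benjamini-Hochberg over all entries tested. The minimum was lowered to 10 reads for miR-1937b and miR-720, which fell under it. This choice, and leaving out libraries for the spread within a genotype, were made after seeing the data. Settings tried beside this were DESeq2 1.42.0, other minimums, TMM factors, totals lacking the 5 most read entries or the 5 entries described, a replicate block, and left-out libraries. Single levels were compared by exact permutation tests (scipy 1.17.1). Both edgeR and DESeq2 were also run on simulated counts. The changes set there were larger than those of the 4 entries, so the run does not show whether changes of their size would be found. Mature sequences and promoters came from RefSeq, genome sequence and genes from NCBIM37 with GENCODE vM1, read with pysam 0.24.0. Named were all 5 entries, the 3 entries most alike to each entry with at least 100 reads in every library, entries with identical counts, those of the 2 comparison lists with at least 100 reads in every library, and miR-378. miR-2136, miR-2139, and both comparison sequences were added after seeing values. The entries, lists and rules were chosen with earlier results of these data known.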

Additional observations from a re-analysis of the deposited data

How the results depend on the processing

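With 3 brains per genotype no exact p can fall below 0.1, and miR-1937b and miR-720 rest on 31 to 98 reads per library. Over all entries edgeR called 0, DESeq2 called 1, and edgeR called 0 to 18 when libraries were left out, 18 without replicate 1 of both genotypes. None of the 4 entries passed under any of these settings. The log2 fold change of miR-1937b reversed to 0.12 without replicate 3. Of the 4 entries, the number with the same direction in all 3 replicate numbers was 2, beside 112 of 608 entries (18.4%). It fell to 1 with totals that leave out the 5 most read entries. The share over all entries was not computed on that scale, and the cause was not tested beyond that scaling. With libraries left out in turn, log2 fold changes ran from −0.67 to −0.35 for miR-1937a, −0.49 to 0.12 for miR-1937b, 0.19 to 0.43 for miR-720 and −0.90 to −0.16 for miR-2145, and the ratio of the joint share from 0.680 to 0.848.

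Libraries with the same number share a deposited table, and the correlations of their deviations from the genotype means were −0.00, −0.08 and −0.01. The number was therefore not taken to pair them. With a replicate block edgeR called 0 entries (7 at an unadjusted p under 0.05), and with the block and TMM factors 0. Under the block the log2 fold changes were −0.53 for miR-1937a, −0.22 for miR-1937b, 0.30 for miR-720 and −0.52 for miR-2145, and no call changed.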
